A study of Rattus norvegicus with 12 samples.

Results

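The genes described here are the 3 fibrinogen chain genes Fga, Fgb and Fgg, the pentraxin gene Apcs, the protease inhibitor gene A2m and the complement gene C3, measured in rat kidney cortex after cephaloridine. They were found by symbol or accession among the non-control probes of the array and make up 6 of 35527 genes or unmatched transcripts, with 9 of 41012 probes; 8 of those probes passed the filter on dim signal. They were chosen by their measured changes with dose on these same arrays, fibrinogen upward against Apcs downward, so their values, and the calls that a fit across all genes made on them, are a description and support nothing by themselves.

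Cephaloridine is a cephalosporin antibiotic that injures the proximal tubule of the kidney. Male Fisher 344 rats, 8 weeks old, received 1 intravenous dose of saline alone (0 mg/kg), or of 150, 300 or 600 mg/kg cephaloridine in saline, and the kidney cortex was taken 24 h later. Each group held 3 animals, and each animal's total RNA was hybridised to its own single-colour Agilent whole-genome array, giving 12 arrays. The study set doses it regarded as subtoxic beside a toxic dose; which dose is which is not taken up here. All groups were of the same sex, strain and age.

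Fibrinogen is a plasma protein built from paired alpha, beta and gamma chains, encoded by Fga, Fgb and Fgg, and thrombin turns it into the fibrin of a clot. The liver makes most of it, and its output rises in the acute phase response, in which interleukin 6 acts through STAT3 on hepatocytes, with C/EBP and HNF1 factors also acting on the promoters. A2m, the alpha-2-macroglobulin that traps proteases, is the classical strong acute phase protein of the rat. Apcs encodes serum amyloid P component, a pentraxin that binds amyloid fibrils and is a major acute phase protein in the mouse. C3 encodes the central component of complement, and kidney epithelium is known to make it as well as liver.

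In the deposited data, fibrinogen signal was higher and Apcs signal lower at 600 mg/kg than in saline controls, and no array of either group overlapped the other for any of the 4 genes; among all genes tested, 28.5% lay wholly above the controls and 27.6% wholly below. Fgb was 2.83-fold higher, Fgg 2.31-fold higher and Fga 1.47-fold higher than in controls, while Apcs was 2.66-fold lower. C3 was 1.60-fold higher. A2m, by contrast, was uneven among animals and changed sign when the array slide was taken into account. With slide taken into account, Fgb was the only 1 of the 6 called at 600 mg/kg against control (limma, adjusted p under 0.05). Beside it, 1.83% of all genes were called higher and 0.983% lower.

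The promoters are shown because the chain genes share a direction at the top dose and Apcs takes the opposite one. Fgg, Fga and Fgb follow each other in that order on rat chromosome 2 with no annotated gene between them, while Apcs lies on chromosome 13, A2m on chromosome 4 and C3 on chromosome 9. The sequences are the 250 bases before the annotated start in RefSeq (build GRCr8), read 5′ to 3′ on the gene's strand: Fga at chr2:170671919-170672168 on the plus strand, the first of 2 starts listed; Fgb at chr2:170700876-170701125 on the minus strand; Fgg at chr2:170652833-170653082 on the plus strand; Apcs at chr13:87906509-87906758 on the minus strand; and C3 at chr9:2201340-2201589 on the minus strand. Capitals mark matches, on either strand, to 4 motifs: CTGGGA, the core of the interleukin 6 response element of acute phase genes; TTCNNNGAA, the STAT palindrome; TTGCNNAA, a C/EBP site; and GTTAAT, an HNF1 core.
Fga: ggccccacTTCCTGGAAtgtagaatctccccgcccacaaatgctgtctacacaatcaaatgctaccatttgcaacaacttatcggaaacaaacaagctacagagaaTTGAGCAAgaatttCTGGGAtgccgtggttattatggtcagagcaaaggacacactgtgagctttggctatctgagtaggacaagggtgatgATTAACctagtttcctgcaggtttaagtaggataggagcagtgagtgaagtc
Fgb: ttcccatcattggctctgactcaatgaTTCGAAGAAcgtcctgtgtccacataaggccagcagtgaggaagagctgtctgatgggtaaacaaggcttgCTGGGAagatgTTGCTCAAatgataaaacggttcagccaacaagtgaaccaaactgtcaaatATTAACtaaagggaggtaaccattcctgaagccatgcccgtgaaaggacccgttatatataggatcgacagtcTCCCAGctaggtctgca
Fgg: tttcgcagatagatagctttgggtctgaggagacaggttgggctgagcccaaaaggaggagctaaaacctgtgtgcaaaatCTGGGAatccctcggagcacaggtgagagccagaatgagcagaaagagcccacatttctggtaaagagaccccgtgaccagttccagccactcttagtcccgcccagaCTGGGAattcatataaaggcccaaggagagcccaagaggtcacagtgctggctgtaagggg
Apcs: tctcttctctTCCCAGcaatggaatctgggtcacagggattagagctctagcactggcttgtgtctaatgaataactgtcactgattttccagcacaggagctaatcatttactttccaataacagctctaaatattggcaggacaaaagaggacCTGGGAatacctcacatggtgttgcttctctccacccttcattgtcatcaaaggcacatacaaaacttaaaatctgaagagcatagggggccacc
C3: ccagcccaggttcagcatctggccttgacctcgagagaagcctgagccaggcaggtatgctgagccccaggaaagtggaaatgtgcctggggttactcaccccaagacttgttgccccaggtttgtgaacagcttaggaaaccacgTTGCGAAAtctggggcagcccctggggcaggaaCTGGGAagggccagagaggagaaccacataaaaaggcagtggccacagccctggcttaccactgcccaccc
CTGGGA occurred once in the printed Fga and C3 windows and 2 times in those of Fgb, Fgg and Apcs. At least 1 match was present in 25.7% of 33469 rat promoter windows of the same length, and 2 or more in 4.22%. The STAT palindrome, held by 7.7% of windows, was found in Fgb and in the printed Fga window, but not in the window of the other Fga start. The HNF1 core, held by 6.5%, was found in Fga and Fgb. The C/EBP motif, held by 9.2%, was found in Fga, Fgb and C3. Apcs and Fgg each carried 2 CTGGGA matches and none of the other motifs. Both matches in Fgg lay on the gene's strand, and 1 of the 2 in Apcs lay on the other strand. Any link between motifs and signal was not tested. No match overlapped another, and a match is a description of letters, not of binding.

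Levels are given as scaled signal, the processed signal of a probe as a percentage of the array's 75th percentile over probes. This scale compares one probe across arrays and not one gene with another, since probes differ in brightness. Log2 changes are differences of group means from a limma fit to all 12 arrays, with its standard error (SE); n was 3 animals per group throughout. The arrays came from 4 slides that followed dose in part: slide 1 held the 3 controls and 150 mg/kg animal 1, slide 2 held 150 mg/kg animal 2 and 300 mg/kg animal 1, slide 3 held 150 mg/kg animal 3 and 300 mg/kg animal 2, and slide 4 held 300 mg/kg animal 3 and the 3 animals at 600 mg/kg. A value with slide as a block therefore links 600 mg/kg to controls only through the single arrays that share slides, and it is given beside each change at that dose. Of the 20759 genes tested, the median log2 change at 600 mg/kg was -0.002 and the median SE was 0.0757, or 0.154 with slide as a block.

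Array quality differed little between animals. The median processed signal of an array lay between 65.1 and 74.8 and its 75th percentile between 677 and 774. Between 59.2% and 63.2% of probes stood well above background, and no spot was saturated. Correlations between arrays lay between 0.9889 and 0.9975, and no array was identical to another. The labelled tissue carried its markers: all 8 proximal tubule genes were measured, with summed scaled signals of 51600 to 54100 in controls, 50300 to 54600 at 150 mg/kg, 48600 to 49000 at 300 mg/kg and 36100 to 38000 at 600 mg/kg. At the top dose 7 of those 8 were lower than in controls at adjusted p under 0.05, beside 16.8% of all genes, and 2 of 8 with slide as a block, beside 0.983%. In whole cortex fewer cells of a type and less RNA per cell cannot be told apart.

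**Figure D1:**
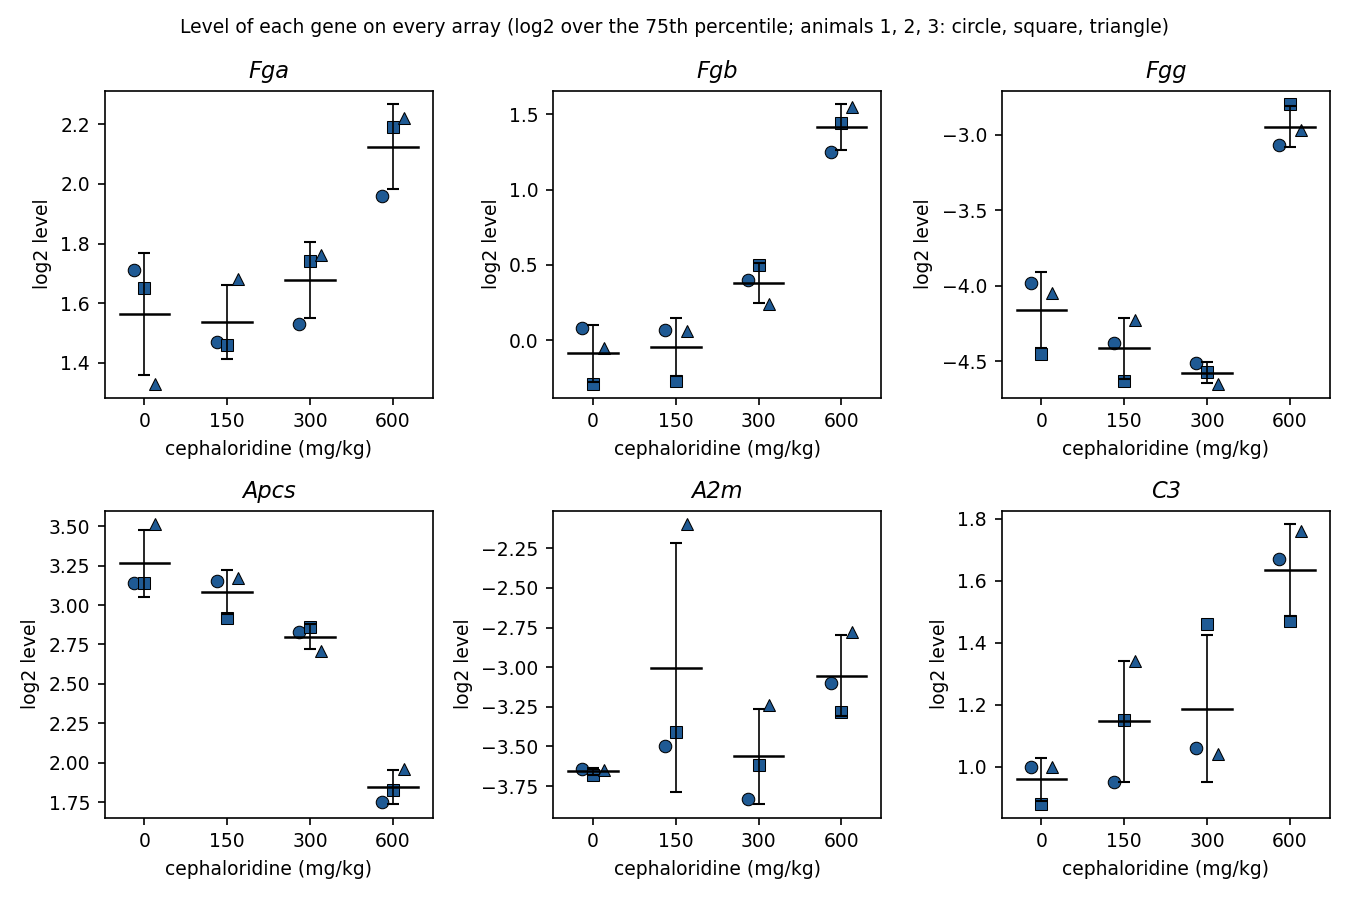
Level of each gene on every array, as log2 of the signal over the array's 75th percentile, against the cephaloridine dose in mg/kg; circles, squares and triangles are animals 1, 2 and 3 of a group, and bars give the mean and SD (n = 3). The 3 animals at 600 mg/kg lie above all other animals for Fga, Fgb, Fgg and C3 and below all others for Apcs, while 1 animal at 150 mg/kg stands apart for A2m.

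Fgb, the beta chain, showed a step at each dose from 300 mg/kg upward. Its brightest probe (NM_020071) had scaled signals of 106, 82.1 and 96.4 in controls, 105, 82.8 and 104 at 150 mg/kg, 132, 141 and 118 at 300 mg/kg, and 238, 270.5 and 294 at 600 mg/kg. The controls and the 150 mg/kg animals were intermingled, the 300 mg/kg animals all lay above both, and the 600 mg/kg animals lay above those. The log2 change against controls was 0.04 at 150 mg/kg, 0.47 at 300 mg/kg and 1.5 at 600 mg/kg, each with an SE of 0.13. Taking slide as a block, the changes were 0.15, 0.71 and 1.89, so the difference at the top dose was larger with the block (SE 0.27). On slide 4 alone, the 3 animals at 600 mg/kg exceeded the 300 mg/kg animal beside them by 1.18 on the log2 scale, and on slides 2 and 3 the 300 mg/kg animal exceeded the 150 mg/kg animal by 0.68 and 0.44.

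A second Fgb probe gave the same order of groups. It read 63.6, 51.0 and 58.3 in controls, 62.0, 46.7 and 65.0 at 150 mg/kg, 79.4, 82.4 and 70.7 at 300 mg/kg, and 147, 171 and 186 at 600 mg/kg. Its log2 change at 600 mg/kg was 1.54 (SE 0.14, 2.91-fold), and its animals ranked as with the first probe in 3 of the 4 groups. The remaining Fgb probe, designed on another transcript record (M35602), was not well above background on any array, with scaled signals between 0.56 and 1.95.

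Fgg, the gamma chain that carries the main platelet-binding end of fibrinogen, was dim and stood above the controls at the top dose alone. The brighter of its probes (NM_012559) read 6.36, 4.59 and 6.05 in controls, 4.80, 4.04 and 5.34 at 150 mg/kg, 4.39, 4.20 and 3.98 at 300 mg/kg, and 11.9, 14.3 and 12.7 at 600 mg/kg. The 3 top-dose animals were far above the rest, and the 300 mg/kg animals all lay just under the lowest control, with the 150 mg/kg animals spread across both groups. The log2 change against controls was -0.26 at 150 mg/kg, -0.42 at 300 mg/kg and 1.21 at 600 mg/kg, each with an SE of 0.13, and 1.36 (SE 0.34) at 600 mg/kg with slide as a block. Against 300 mg/kg, Fgg at 600 mg/kg was 3.09-fold higher, the widest such step among the 6 genes, and 1.70 higher on the log2 scale within slide 4. On slides 2 and 3 the 300 mg/kg animal minus the 150 mg/kg animal was 0.12 and -0.35. Animal 2 at 150 mg/kg was the single array on which this probe was not well above background. With another background correction (normexp) the log2 change at 600 mg/kg was 0.58, so its size depends on how the low signal is treated.

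The second Fgg probe was dimmer still. It read 2.17, 1.71 and 2.49 in controls, 1.46, 2.35 and 2.96 at 150 mg/kg, 2.30, 1.53 and 2.88 at 300 mg/kg, and 5.73, 7.21 and 6.54 at 600 mg/kg, and was well above background on all 3 top-dose arrays, on 1 array at 150 mg/kg and on no other. Set against the lowest signal that counts as above background, it was at least 1.94-fold higher at 600 mg/kg than in controls and at least 2.08-fold higher than at 300 mg/kg. Its fitted log2 change at 600 mg/kg was 1.62, but 0.15 (SE 0.47) with slide as a block, unlike the brighter probe.

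Fga, the alpha chain from which thrombin releases fibrinopeptide A, moved least of the chains. It read 326, 315 and 251 in controls, 277, 274 and 321 at 150 mg/kg, 288, 333 and 339 at 300 mg/kg, and 389, 456 and 466 at 600 mg/kg (NM_001008724). All 3 top-dose animals were above every other animal, and the remaining 3 groups overlapped one another. The log2 change was -0.03 at 150 mg/kg, 0.11 at 300 mg/kg and 0.56 at 600 mg/kg, each with an SE of 0.12. The top-dose change was 0.33 (SE 0.26) with slide as a block, and within slide 4 it was 0.36 against the 300 mg/kg animal, while the 300 and 150 mg/kg animals of slides 2 and 3 differed by 0.07 and 0.05.

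The chains thus differed in size of change within the same animals. At 600 mg/kg, the log2 change of Fga minus that of Fgb was -0.94 ± 0.04 (SD, n = 3), between -0.98 and -0.89 in single animals. Fga minus Fgg was -0.65 ± 0.11, and Fgb minus Fgg was 0.29 ± 0.15. Animal 1, the lowest of the group for Fga and Fgb, was also the lowest for Fgg. A difference of log2 changes between probes also holds any difference in how the probes respond to amount, which was not tested.

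Apcs, the pentraxin gene, had a lower mean at each dose than at the dose below it. Its probe (NM_017170) read 879.7, 881 and 1136 in controls, 887, 759 and 902 at 150 mg/kg, 711, 724 and 657 at 300 mg/kg, and 336, 357 and 390.1 at 600 mg/kg. The 150 mg/kg animals overlapped the controls, the 300 mg/kg animals all lay below both, and the 600 mg/kg animals lay far below those. The log2 change against controls was -0.18 at 150 mg/kg, -0.46 at 300 mg/kg and -1.41 at 600 mg/kg, each with an SE of 0.11. With slide as a block the changes were -0.11, -0.32 and -1.18 (SE 0.26 at the top dose). Within slide 4 the top-dose animals minus the 300 mg/kg animal gave -0.87, and on slides 2 and 3 the 300 mg/kg animal minus the 150 mg/kg animal was -0.10 and -0.32.

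Fgb and Apcs moved in opposite directions at both of the upper dose steps, with no overlap between neighbouring groups at either step. Among all genes tested, 12.4% lay wholly higher and 6.19% wholly lower at 300 than at 150 mg/kg, and 15.5% and 21.2% at 600 than at 300 mg/kg. Between 150 and 300 mg/kg, Fgb changed by 0.43 (SE 0.13) and Apcs by -0.28 (SE 0.11). Between 300 and 600 mg/kg, Fgb changed by 1.03 (SE 0.13) and Apcs by -0.95 (SE 0.11). Proximal tubule markers were lower at the top dose as given above, and 1 of the 8 was lower at 300 mg/kg at adjusted p under 0.05, beside 4.81% of all genes. Whether the Apcs signal followed the tubule cells was not tested.

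The mean change of the 3 chains minus the change of Apcs put the opposed pattern into 1 number per animal. It was 0.29, -0.01 and -0.28 in the 3 controls, 0.06, 0.08 and 0.15 at 150 mg/kg, 0.47, 0.52 and 0.55 at 300 mg/kg, and 2.45, 2.59 and 2.46 at 600 mg/kg. The controls spanned the 150 mg/kg animals, whereas each higher dose lay apart from the dose below. The group means were 0.10 ± 0.05 at 150 mg/kg, 0.51 ± 0.04 at 300 mg/kg and 2.50 ± 0.08 at 600 mg/kg, against a control SD of 0.28 (n = 3 each). Nearly all of it at 300 mg/kg came from Apcs, since the mean change of the chains was 0.05 there, with Fgb up and Fgg down. At 600 mg/kg the chains gave 1.09 of the 2.50, and the value was 2.38 with slide as a block.

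**Figure D2:**
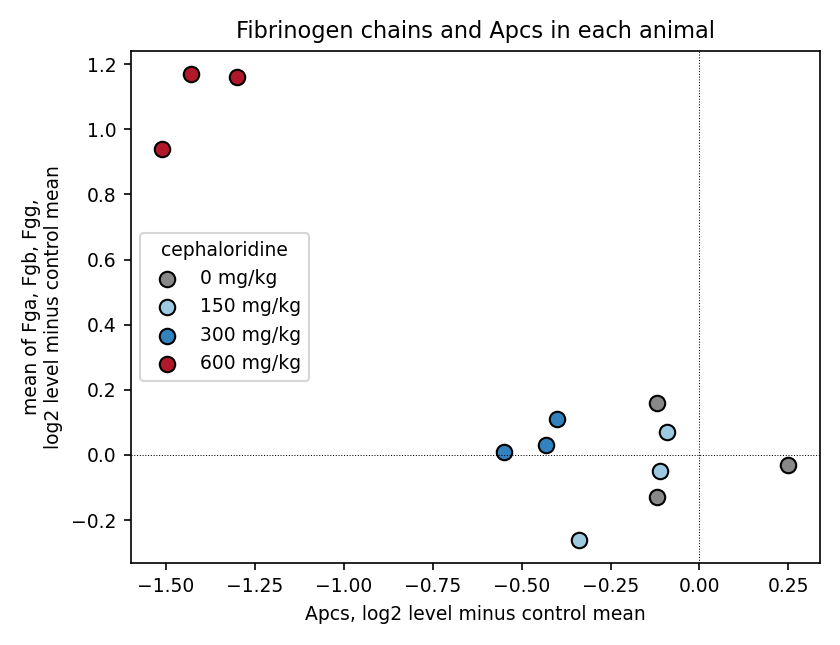
Mean log2 change of Fga, Fgb and Fgg (vertical axis) against the log2 change of Apcs (horizontal axis), both from the control mean, with 1 point per animal coloured by dose. The 3 animals at 600 mg/kg lie apart at the upper left, and the 3 at 300 mg/kg are shifted left of the controls but hardly upward.

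C3, the complement component on which all activation routes converge, read 199.8, 184 and 200.4 in controls, 194, 222 and 254 at 150 mg/kg, 208, 274 and 206 at 300 mg/kg, and 319, 278 and 338 at 600 mg/kg (NM_016994). All top-dose animals were above every other animal, the 300 mg/kg animals were above the controls by a small margin, and the 150 mg/kg animals overlapped both. The log2 change was 0.19 at 150 mg/kg, 0.22 at 300 mg/kg and 0.67 at 600 mg/kg, each with an SE of 0.13. These were, with slide as a block, -0.01, 0.00 and 0.60 (SE 0.20), so only the top-dose change held its size, and within slide 4 it was 0.59 against the 300 mg/kg animal. On slides 2 and 3 the 300 mg/kg animal minus the 150 mg/kg animal was -0.10 and 0.11. In size its change was near that of Fga, with Fga minus C3 at -0.11 ± 0.22 (SD, n = 3) at 600 mg/kg.

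A2m was dim and uneven. It read 8.00, 7.79 and 7.96 in controls, 8.83, 9.38 and 23.3 at 150 mg/kg, 7.05, 8.15 and 10.6 at 300 mg/kg, and 11.7, 10.3 and 14.6 at 600 mg/kg (NM_012488). The controls were nearly equal, animal 3 at 150 mg/kg stood well above all other animals, and the 600 mg/kg animals lay above the controls but overlapped both of the other dosed groups. The log2 change was 0.65 at 150 mg/kg, 0.10 at 300 mg/kg and 0.61 at 600 mg/kg, each with an SE of 0.32, and at 150 mg/kg it was 0.20 without animal 3. The block for slide turned the signs, to -0.81 at 300 mg/kg and -0.62 (SE 0.48) at 600 mg/kg. Within slide 4 the top-dose animals were 0.19 above the 300 mg/kg animal, with single differences between -0.04 and 0.47, and on slides 2 and 3 the 300 mg/kg animal minus the 150 mg/kg animal was -0.41 and -1.51. No direction is given for A2m.

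**Figure D3:**
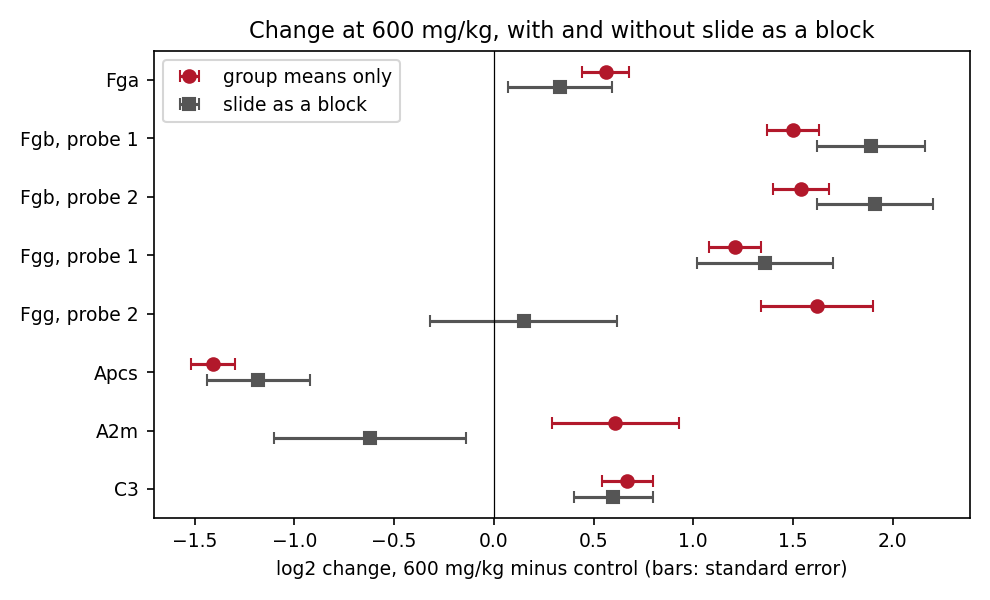
Log2 change at 600 mg/kg minus control for each measured probe of the 6 genes, from group means (red circles) and with slide as a block (grey squares); bars are standard errors. Fgb, the brighter Fgg probe, Apcs and C3 keep their direction and most of their size, the dimmer Fgg probe is near 0 with the block, and A2m changes sign.

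The share of these genes that was called is set beside that of the whole table without reading anything from it, because the same contrasts chose them. At 600 mg/kg against control, limma with Benjamini-Hochberg adjustment over 20759 genes called 4 of the 6 higher (Fga, Fgb, Fgg, C3) and 1 lower (Apcs), with 18.0% of all genes called higher and 16.8% lower. At 300 mg/kg against control it called Fgb higher and Apcs lower, beside 8.21% of all genes higher and 4.81% lower, and at 150 mg/kg none of the 6, beside 0.101% in either direction. At 600 against 300 mg/kg the same 4 were called higher and Apcs lower, beside 9.61% and 12.9% of all genes, and at 300 against 150 mg/kg none, beside 0.231%. With slide as a block, 1 of the 6 (Fgb) was called higher and none lower at 600 mg/kg against control, beside 1.83% and 0.983% of all genes, and 3 higher (Fgb, Fgg, C3) and 1 lower (Apcs) at 600 against 300 mg/kg, beside 4.96% and 4.79%. Both calls at 300 mg/kg against control were lost with the block, where 0.120% of all genes were called higher and 0.0963% lower. At 600 mg/kg 5 of the 6 lay above the controls with no overlap and 1 below, as did 28.5% and 27.6% of all genes. At 300 mg/kg 2 lay above and 2 below without overlap, as did 20.5% and 12.3%, and at 150 mg/kg 1 lay above and none below, as did 11% and 8.81%.

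The genes whose log2 course over the 12 arrays was most like that of the chains' mean were Gmnn (root mean square difference 0.123), Tcf19 (0.151), Rad18 (0.152), Cenpk (0.158) and Chtf18 (0.159), among 11041 tested genes with a symbol. Gmnn encodes geminin, an inhibitor of replication licensing, and Cenpk encodes a centromere protein. For Apcs the closest were Folh1 (0.108), Or13l2 (0.191), Clstn2 (0.21), Or52z12 (0.225) and Syne2 (0.232), so Folh1, the gene of glutamate carboxypeptidase II, stood nearer than the rest. For C3 they were Il21r (0.107), Pkib (0.116), Ms4a7 (0.118), Ctsz (0.122) and Slc35d2 (0.126), among them the interleukin 21 receptor and the lysosomal protease cathepsin Z. For A2m the nearest were farther away, with Cort at 0.283, Pdgfb at 0.331, Fzd5 at 0.337, F2rl1 at 0.34 and Slc36a1 at 0.345.

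Other positive acute phase genes, whose liver output rises in inflammation, were more often higher than lower at the top dose. Of 24 listed genes 16 were measured, and at 600 mg/kg against control 10 rose, none fell and 6 did not pass (limma, adjusted p under 0.05), with a median log2 change of 0.48, beside 18.0% of all genes higher, 16.8% lower and a median of -0.002. With slide as a block 1 of the 16 rose, Cd14, the lipopolysaccharide co-receptor, beside 1.83% of all genes, and the list's median was 0.32. The count of 10 was 5 without control animal 1 or top-dose animal 3, 6 without control animal 3, top-dose animal 2 or 150 mg/kg animal 3, 6 with the mean of all probes and 5 without the filter on dim probes. It was 8 with only genes well above background on all 12 arrays. Itih3 and Lcn2, given below, entered the test through the top-dose arrays alone. Lbp, which hands lipopolysaccharide to CD14, was 1.41-fold higher (log2 0.50, SE 0.09, adjusted p = 0.00281; 0.342 with the block). Itih3, an inter-alpha-inhibitor heavy chain, was at least 1.34-fold higher (adjusted p = 0.00346; 0.254 with the block), its probe being well above background on the top-dose arrays only. Lcn2, the siderophore-binding protein released by injured tubules, was at least 1.76-fold higher (adjusted p = 0.0159), a call that ended with slide as a block (0.852) or without control animal 3 (0.0578). Lcn2 read 7.5 in animal 3 at 150 mg/kg, above the 5.69, 6.51 and 5.42 of the top-dose animals. Hp, haptoglobin, read 5.94, 8.5 and 10.4 at 600 mg/kg against 3.88, 4.55 and 7.25 in controls and did not pass (log2 0.68, SE 0.44, adjusted p = 0.256). Crp was not well above background on any array.

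At 300 mg/kg the same list had a median of -0.14. No gene of it rose and 1 fell, beside 8.21% and 4.81% of all genes. That gene was Il1rn, the interleukin 1 receptor antagonist (log2 -0.39, SE 0.10, adjusted p = 0.033), and the call ended with slide as a block (0.222), without control animal 1 or 2 or 300 mg/kg animal 2 or 3, with the mean of all probes, without the filter on dim probes and with only the 2 groups. The count of genes that rose was 2 with normexp or without control animal 3, and 1 with scan day as a block or without 300 mg/kg animal 1. At 150 mg/kg none of the 16 passed in either direction, beside 0.101% of all genes.

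Negative acute phase genes, whose liver output falls in inflammation, were also higher rather than lower where a call was made. Of 10 listed 5 were measured, and at 600 mg/kg 3 rose and none fell, beside 18.0% and 16.8% of all genes, with a median of 0.36. The count of 3 was 1 without the filter on dim probes, with the slide as a block, and without control animal 2 or 3 or top-dose animal 1 or 2. With the block 1.83% of all genes were called higher. F12, coagulation factor XII, was 1.46-fold higher (SE 0.14 on the log2 scale, adjusted p = 0.0125), a call that ended with slide as a block (-0.13, adjusted p = 0.73) and with the mean of its probes. Fetub, fetuin B, was 1.29-fold higher (SE 0.11, adjusted p = 0.0246), a call that held with the block (0.0238) but ended without any single control or top-dose animal (highest 0.0748) and without the filter on dim probes. Rbp4, the retinol carrier, was 1.27-fold higher (adjusted p = 0.0296; 0.858 with the block). Alb was well above background on 2 of 3 arrays at 600 mg/kg and 1 of 3 control arrays and was not tested. It was also well above background in animals 1 and 3 at 150 mg/kg and in animals 1 and 3 at 300 mg/kg. Ttr was well above background on no array.

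Genes of the interleukin 6 family and STAT3 signalling were mixed, with more higher than lower at the top dose. Of 36 listed 28 were measured, and at 600 mg/kg 11 rose, 1 fell and 16 did not pass, beside 18.0% and 16.8% of all genes, with a median of 0.19. With slide as a block none rose and 2 fell, beside 1.83% and 0.983% of all genes, with a median of 0.04. Without control animal 3 the count that rose was 7. Il6 itself was well above background on 1 array, that of animal 1 at 600 mg/kg, and was not tested. Il1b, an interleukin that drives acute phase genes alongside interleukin 6, read 285, 158 and 198 at 600 mg/kg against 45.7, 61.3 and 30.5 in controls. Its log2 change was 2.23 (SE 0.48, 4.70-fold, adjusted p = 0.0058; 0.311 with the block). Animals 2 and 3 at 150 mg/kg read 182 and 174 for Il1b, within the range of the top-dose animals, and animal 1 read 52.7.

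Several receptors and a feedback gene of the same list rose at the top dose. Osmr, the oncostatin M receptor, read 13.7, 14.4 and 19.7 at 600 mg/kg against 5.77, 7.00 and 6.20 in controls, with no overlap (log2 1.32, SE 0.17, 2.50-fold, adjusted p = 0.000368; 0.241 with the block). Socs3, the feedback inhibitor induced by STAT3, read 25.6, 17.8 and 16.6 at 600 mg/kg against 6.76, 11.3 and 6.26 in controls (log2 1.33, SE 0.32, adjusted p = 0.00988). Its change was -0.03 once slide was a block (adjusted p = 0.982), and animals 2 and 3 at 150 mg/kg read 17.5 and 17.7. Il6r, the interleukin 6 receptor, was 1.21-fold higher (adjusted p = 0.0249), a call that ended with the block (0.925) and without control animal 1 or 3 or top-dose animal 2 or 3. Tnf was at least 1.57-fold higher (adjusted p = 0.0276), which ended with the block (0.544), on the authors' deposited value table and without control animal 1 or 3 or top-dose animal 1 or 3. Tnf entered the test through the top-dose arrays alone. Il6st, the shared signal transducer, did not pass (log2 0.00, adjusted p = 0.993), nor did Cebpb (0.20, adjusted p = 0.489) or Cebpd (0.63, adjusted p = 0.149).

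Stat3 depended on the probe. The brightest probe gave 0.21 at 600 mg/kg (SE 0.07, adjusted p = 0.051) and another 0.59 (adjusted p = 0.000104 in a fit of every probe). At 300 mg/kg the brightest probe was lower (-0.30, adjusted p = 0.0285; 0.389 with slide as a block) and the other read 0.03. Hnf4a, a nuclear receptor of hepatocytes and proximal tubule, was the 1 gene of the list that fell at 600 mg/kg, with 141, 145 and 150.5 against 204, 196 and 202 in controls (log2 -0.46, SE 0.05, adjusted p = 0.000146; 0.0465 with the block). Nfkbia, the NF-kappaB inhibitor, fell at 300 mg/kg (log2 -0.62, SE 0.18, adjusted p = 0.0489), and that call ended with the block (0.0677) and without most single animals.

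Among coagulation and fibrinolysis genes, the shares called at the top dose were near those of all genes, somewhat above for lower calls. Of 38 listed 27 were measured, and at 600 mg/kg 5 rose, 7 fell and 15 did not pass, beside 18.0% and 16.8% of all genes, with a median of -0.02. With slide as a block 1 rose and 1 fell, beside 1.83% and 0.983% of all genes. F13b, the carrier chain of the fibrin-crosslinking factor XIII, read 79.9, 85.6 and 91.6 at 600 mg/kg against 186, 149 and 181 in controls (log2 -1.0, SE 0.12, 2.0-fold lower, adjusted p = 0.00032; 0.224 with the block). Hrg, a plasminogen- and fibrinogen-binding plasma glycoprotein, was 1.78-fold lower (log2 -0.84, SE 0.13, adjusted p = 0.00113; 0.209 with the block). Fgl2, a fibrinogen-like prothrombinase, was 1.64-fold higher (log2 0.71, SE 0.09, adjusted p = 0.000437), a call that ended with the block (0.0799) and with the mean of its probes. Tfpi2, a protease inhibitor of the extracellular matrix, was higher (adjusted p = 0.0179; 0.0487 with the block), a call that ended without control animal 1 or 2 or top-dose animal 1. It read 8.78, 6.57 and 7.20 at 600 mg/kg against 2.13, 2.58 and 3.88 in controls, of which 1 was well above background, and 7.71 in animal 1 at 150 mg/kg. Tfpi2 passed the filter on dim signal through the top-dose group alone.

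Tissue factor and 3 genes of fibrin breakdown did not pass at 600 mg/kg. The log2 change was -0.03 for F3 (tissue factor), 0.09 for Plat and -0.05 for Plau (the plasminogen activators) and 0.23 for Plaur (the urokinase receptor, adjusted p = 0.149). At 300 mg/kg 2 of the 27 genes rose and none fell, near the 8.21% of all genes called higher and beside 4.81% lower. The 2 were Tfpi (log2 0.25, SE 0.04, adjusted p = 0.00749), for which another probe gave -0.11, and the plasminogen receptor Plgrkt (0.26, SE 0.04, adjusted p = 0.00936). Both calls ended with slide as a block.

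Fibrinogen receptors were measured for 8 of 11 listed genes, of which 4 rose and none fell at 600 mg/kg, beside 18.0% and 16.8% of all genes, with a median of 0.25. The count of 4 became 2 without control animal 1 or 2, without top-dose animal 3 or without the filter on dim probes. It became 1 once slide was a block, beside 1.83% of all genes. The count that fell was 1 without 300 mg/kg animal 2 and with only the 2 groups. Icam1, the adhesion molecule of endothelium that binds fibrinogen, read 851, 616 and 667 at 600 mg/kg against 358, 448 and 311 in controls (log2 0.94, SE 0.18, 1.91-fold, adjusted p = 0.00344; 0.261 with the block). Itgb2, the shared beta chain of the leukocyte integrins, was 1.39-fold higher (log2 0.47, SE 0.06, adjusted p = 0.000451) and stayed called with the block (0.0458). Its partner Itgam was 1.33-fold higher (adjusted p = 0.0274), a call that ended with the block (0.887), with normexp correction and without any single control animal or top-dose animal 3. Itgb1 fell at 300 mg/kg (log2 -0.36, SE 0.10, adjusted p = 0.0471), which ended with the block and without most single animals.

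Complement genes other than C3 rose more often than they fell. Of 35 listed 27 were measured, and at 600 mg/kg 11 rose, 3 fell and 13 did not pass, beside 18.0% and 16.8% of all genes, with a median of 0.15; with slide as a block 1 rose and none fell, beside 1.83% and 0.983%. C6, a part of the membrane attack complex, read 58.5, 56.9 and 60.7 at 600 mg/kg against 27.3, 34.4 and 33.0 in controls (log2 0.90, SE 0.12, 1.87-fold, adjusted p = 0.000514), and it was the gene that held with the block (0.0287). Masp2, the protease of the lectin route, was 1.59-fold higher (log2 0.67, SE 0.10, adjusted p = 0.000959; 0.21 with the block) and already 1.69-fold higher at 300 mg/kg (adjusted p = 0.004; 0.171 with the block). Cfb, the alternative route protease that pairs with C3b, was 1.27-fold higher (adjusted p = 0.00812; 0.461 with the block). C5 was 1.60-fold lower (log2 -0.68, SE 0.14, adjusted p = 0.00488; 0.738 with the block). C8b rose at 300 mg/kg (log2 0.44, SE 0.05, adjusted p = 0.00193) and fell at 600 mg/kg (-0.30, SE 0.05, adjusted p = 0.0017), both calls ending with the block. C4a was 1.16-fold lower (adjusted p = 0.0294), a call that ended with the block (0.422), under a median scaling and without 5 of the single animals of the pair of groups.

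Relatives of Apcs and A2m were mostly not measured. Of 11 listed 3 were measured. At 600 mg/kg 1 rose, 1 fell and 1 did not pass, beside 18.0% of all genes higher and 16.8% lower. Nptxr, a membrane pentraxin, was 1.23-fold higher (log2 0.30, SE 0.08, adjusted p = 0.013; 0.317 with slide as a block, 0.0535 without control animal 1). Pzp, a macroglobulin related to A2m, was 1.30-fold lower (log2 -0.38, SE 0.08, adjusted p = 0.00461; 0.61 with the block). Lrp1, the receptor that clears A2m with its captured proteases, did not pass (log2 -0.07, adjusted p = 0.488). Mug1 was well above background on 2 top-dose arrays and no control array and was not tested. Animal 1 at 150 mg/kg (scaled signal 15.4) and animal 1 at 300 mg/kg (6.44) were also well above background for Mug1. Both read higher than every top-dose animal, and the remaining animals at those doses were not well above background.

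**Figure D4:**
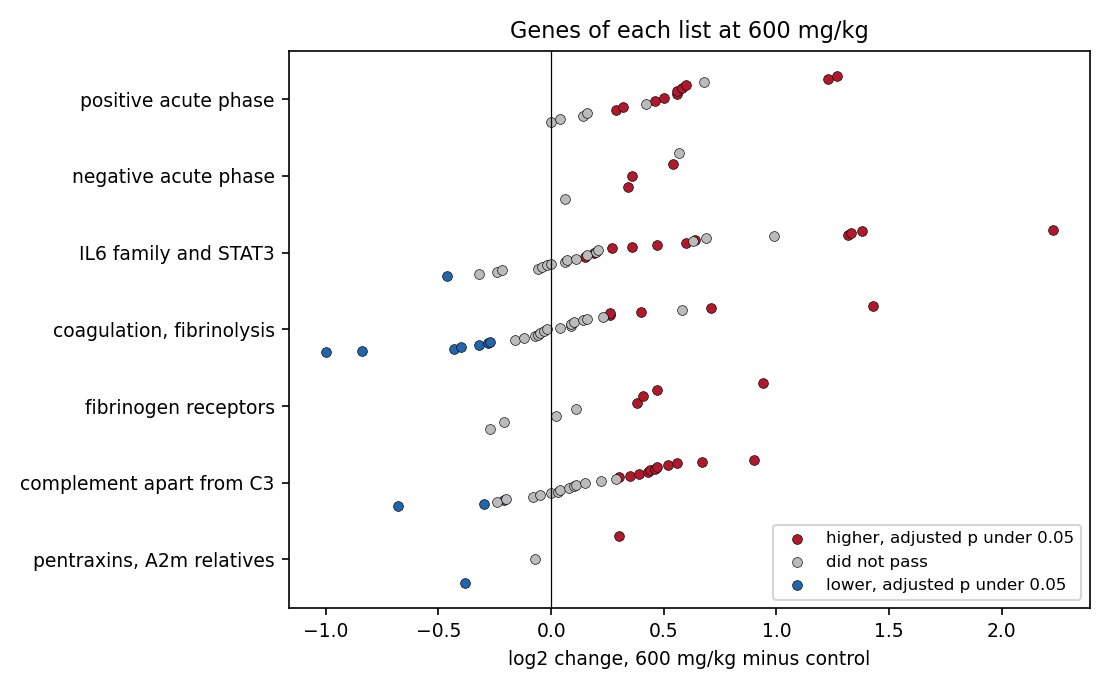
Log2 change at 600 mg/kg minus control of every measured gene of each list, coloured by limma's adjusted p; genes dim in controls are drawn at their fitted value. The 10 positive acute phase genes that rose lie right of 0 with none on the left past the threshold, while coagulation genes spread to both sides, down to -1.0 for F13b.

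Markers of other cells moved with these groups in part, and their part in the results was not tested. Their counts at 600 mg/kg against control stand beside 18.0% of all genes called higher and 16.8% lower. With slide as a block those shares were 1.83% and 0.983%. Of 12 hepatocyte markers 6 were measured and 2 rose at 600 mg/kg (1 with slide as a block). Summed signals were 1940 to 2120 at that dose against 1810 to 1990 in controls. Hepatocyte sums were 1940 to 2230 at 150 mg/kg and 2130 to 2360 at 300 mg/kg, so they were not highest at the top dose. Cps1, Tat, Serpina1 and Cyp7a1 were not well above background on any array. Macrophage markers were measured for 7 of 8 genes, of which 3 rose (none with slide as a block). Sums were 3640 to 4030 at 600 mg/kg against 2930 to 3470 in controls. They were 3370 to 3630 at 150 mg/kg, and at 300 mg/kg, with 3540 to 4110, they overlapped the top dose. Of 7 neutrophil markers 1 was measured and did not pass at 600 mg/kg, with sums of 8.93 to 9.83 against 5.4 to 13.2 in controls. Sums were 4.73 to 8.33 at 150 mg/kg and 4.79 to 5.02 at 300 mg/kg. Mpo, Cxcr2 and Camp were above background on no array. Platelet markers summed to 59.6 to 61.7 at 600 mg/kg against 56.4 to 57.7 in controls, with 1 of 3 measured genes higher (none with the block). The platelet sums reached above that range at the lower doses, with 58.3 to 69.4 at 150 mg/kg and 57.2 to 71.4 at 300 mg/kg. Endothelial markers were lower for 5 of 6 (none with the block), with sums of 4320 to 4560 at 600 mg/kg against 5430 to 5730 in controls. Sums were 5330 to 5510 at 150 mg/kg and 5060 to 5170 at 300 mg/kg. Both measured adipocyte markers were higher (neither with the block), with sums of 216 to 245 at 600 mg/kg against 172 to 178 in controls. Sums were 160 to 191 at 150 mg/kg and 168 to 196 at 300 mg/kg. Distal nephron markers were higher for 3 of 6 (1 with the block), with sums of 40500 to 42400 at 600 mg/kg against 36400 to 39100 in controls. They summed to 37600 to 40300 at 150 mg/kg, and at 300 mg/kg, with 39700 to 43100, they overlapped the top dose. Of 6 fibroblast markers 1 was higher (none with the block), and of 3 measured podocyte markers none passed. At 300 mg/kg against control 2 hepatocyte, 2 distal nephron and 1 adipocyte markers were called higher, beside 8.21% of all genes. Called lower there were 1 neutrophil and 1 endothelial marker, beside 4.81%. None of these calls held with slide as a block, and no marker was called at 150 mg/kg.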

How the data were processed

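Kidney cortex RNA of 12 rats was measured on 1-colour Agilent arrays, 1 per animal, in 4 groups of 3. Per the file headers, the processed signal, mean signal and background signal are linear intensities from Agilent Feature Extraction 9.1.3.1, after subtraction of a local background and spatial detrending, and the marks for spots well above background, saturated or outlying are flags of 0 or 1. The authors' deposited value table is a linear ratio, the processed signal floored at 5 over 1 constant per array, and was used as an alternative; it had 0 unused columns.

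The values analysed were log2 processed signals, averaged over spots of a probe without outlier spots, minus the array's 75th percentile. Probes were named through accession (10735), current symbol (5577) or older symbol (3730) in a RefSeq gene table, and 20970 kept the array's name. The brightest probe stood for a gene, which was tested if the 3 arrays of 1 or more groups all showed it well above background, with unmarked spots on at least 2 arrays of each group. Of 35527 genes 20759 were tested, 19330 of them above background throughout. Groups were compared with limma 3.58.1 (R 4.3.3), 1 mean per group, 8 residual degrees of freedom, two-sided, with Benjamini-Hochberg adjustment over all genes tested and a threshold of 0.05. Where no array of a group was well above background, the fold is a bound against the lowest signal above background. The number of arrays limits the precision. The fit was also checked on simulated data drawn from the means and spreads of these genes, with no slide effect put in. Slide was a fixed block in an alternative fit, since slides held more than 1 group; slide and dose remained partly tied.

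The 6 genes, the gene lists and the tests were chosen with earlier results of these data known. Named in the text are the 6 genes with every probe, a set of listed genes given whatever they showed (2 of them are not reported here), the 2 higher and 2 lower with the largest change among called genes of each list at 600 and 300 mg/kg without overlap between groups, and the 5 genes most like each member; Cd14, Rbp4 and others outside this rule were named after their values were seen. Alternatives were quantile, median and normexp processing, the authors' table, stricter and no filters, the mean of all probes, every probe, only the groups compared, slide, scan day and replicate blocks, and each animal left out.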

Additional observations from a re-analysis of the deposited data

How the results depend on the processing

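The mean change of the fibrinogen chains minus that of Apcs kept its direction at 300 and 600 mg/kg under all alternatives that gave a value. At 600 mg/kg it was 2.21 with normexp background correction and 2.30 with the mean of all probes, against 2.50, and 2.36 to 2.64 with single animals left out. The ranges without single animals were 0.37 to 0.66 at 300 mg/kg and -0.04 to 0.24 at 150 mg/kg. No value could be had with genes well above background on all 12 arrays, where Fgg is lost through 1 array. Leaving out an animal of another group, fitting only 2 groups, the filters and the replicate block cannot move a log2 change. With these fixed values counted, 393 of 411 alternative values for changes of the 6 genes moved by less than the spread between animals. The sign changed in 15, and in 2 of these the starting change was larger than that spread, both with slide as a block: A2m at 600 mg/kg, to -0.62, and C3 at 150 mg/kg, to -0.01. The other 13 started within the spread, among them A2m at 300 mg/kg (-0.81 with slide), Fga at 300 mg/kg (-0.03 with slide) and Fgb at 150 mg/kg (-0.24 with the mean of all probes). The mean of all Fgb probes, which takes in the probe below background, gave 0.69 at 600 mg/kg, and the mean of the Fgg probes gave 1.42. Scan day as a block could not alter the changes at 600 mg/kg, since all control and 600 mg/kg arrays shared 1 scan day. They stayed at 0.56 for Fga, 1.5 for Fgb, 1.21 for Fgg, -1.41 for Apcs, 0.61 for A2m and 0.67 for C3.

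Counts of all genes called by limma depended on the fit. At 150 mg/kg against control, 21 genes were called, 43 with normexp, 12 without the filter, 7 with slide, 8 with scan day and 9 with the replicate block, and 5 to 46 without single animals. A fit of only those 2 groups called 0 genes, although 2544 had an unadjusted p under 0.05. Against control, 300 mg/kg gave 2703 calls, 897 without the filter, 264 with only the 2 groups, 45 with slide, and 710 to 2713 without single animals, the count being 741 without control animal 1 and 710 without control animal 2. At 600 mg/kg 7224 were called, 584 with slide, and 5345 to 8202 without single animals. At 300 against 150 mg/kg 48 were called, 28 with median scaling, 29 on the authors' deposited table, 14 without the filter, 31 with scan day, 18 with the replicate block, and 12 to 90 without single animals. A fit of only those 2 groups called 0, with 2084 at an unadjusted p under 0.05. At 600 against 300 mg/kg 4665 were called, 3024 without the filter, 2540 with only the 2 groups, 2024 with slide, and 3153 to 4568 without single animals. Of the genes called at 300 mg/kg against control 63.1% were higher, 73.8% with median scaling and 73.9% on the authors' table. At 150 mg/kg that share was 57.1%, 37.2% with normexp, 91.7% without the filter, 100% with slide as a block and 42.9% to 100% without single animals, all over few calls. The cause of these shifts was not tested.

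Replicate numbers did not pair the animals: same-numbered arrays correlated in their deviations from the group means at -0.23 to 0.12, with 1 of 18 pairs over 0.1. The replicate block could not move the changes of the 6 genes, since each replicate number occurs once in every group. It moved the 2 counts given above and ended the single lower calls at 300 mg/kg of Il1rn and Itgb1.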

Other observations

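Some cytokine-response genes stood high in part of the 150 mg/kg group. Cebpd, a C/EBP factor induced in the acute phase, read 1394 and 1337 in animals 2 and 3 at 150 mg/kg and 573 in animal 1, against 768, 1112 and 646 in controls. For Cebpb the same 3 animals read 242, 231 and 148 and did not stand apart from the controls (179.6, 241 and 161). Animals 1 and 2 at 300 mg/kg, on the same slides as animals 2 and 3 at 150 mg/kg, read 539 or less for Cebpd and 74.1 or less for Il1b. The chains did not stand high in those 150 mg/kg animals, with Fgb at 82.8 and 104 against 82.1 to 106 in controls. These differences within a group were not tested.

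Albumin signal was uneven within groups, with some arrays not well above background. Alb read 1.64, 23.4 and 15.5 at 600 mg/kg against 3.07, 3.97 and 19.0 in controls, and Mug1, a macroglobulin of rodent plasma, read 0.51, 4.63 and 3.13 against 1.48, 1.03 and 3.69. In both groups the animal or animals high for Alb were also the highest for Mug1. Animal 1 at 150 mg/kg read 32.4 for Alb and 15.4 for Mug1, and animal 1 at 300 mg/kg read 23.9 and 6.44. These lay above every animal at 600 mg/kg. The remaining animals at 150 and 300 mg/kg read 5.37 or less for Alb and 0.79 or less for Mug1.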
